A study of Mus musculus with 12 samples.

Results

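The ADAM and ADAMTS genes encode the metalloproteases of the adamalysin family. Members were taken as every protein-coding gene of the count table whose symbol is Adam or Adamts followed directly by a number. The rule found 52 of 46078 gene identifiers, of which 33 are ADAM and 19 are ADAMTS genes. Their transcripts were followed across 4 groups of C57Bl6 mice, naïve and injured at each of 2 ages, young and middle-aged. Naïve mice had no lesion. Injured mice had received lysolecithin, a detergent-like lipid that strips myelin from axons, in the ventrolateral white matter of the spinal cord, and were killed 72 h later. The methods give 6 weeks as the age of young mice and 8 months as that of middle-aged mice, and the labels give only the words. White matter was cut from stained sections under a laser microscope (laser capture microdissection), and each group had 3 libraries of RNA pooled from 5 mice. The replicate was thus a pool, the spread between mice inside it was not measured, and 1 time point after injury was sampled.

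ADAM proteins are mostly membrane-anchored, with a prodomain, a metalloprotease domain and a disintegrin domain. The catalytic members cut other membrane proteins close to the cell surface, which releases cytokines, growth factors and receptor ectodomains in a step called shedding. A separate set of ADAM proteins has no working protease site and serves in adhesion or as receptors. ADAMTS proteins are secreted and carry thrombospondin type 1 repeats that hold them in the extracellular matrix, where several cut proteoglycans and others trim procollagens. In white matter lesions the family is known for the shedding of inflammatory mediators and for the cleavage of chondroitin sulphate proteoglycans, a matrix class that restrains oligodendrocyte progenitors.

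Depth was similar across the pools, with 9834447 to 12807437 counts on genes per pool, while marker levels of the captured tissue differed. At that depth, the 3 counts that a count of 0 allows came to 0.234 to 0.305 counts per 1000000 (CPM). This limit covers counting error only. All 6 oligodendrocyte markers were present, and their summed level was 86589 to 101823 CPM and 52942 to 60237 CPM in the naïve pools of young and middle-aged mice, and 18228 to 20232 CPM and 7920 to 12431 CPM in their lesions. The sum of 6 myeloid markers was 71.7 to 102 CPM and 109.6 to 147 CPM in the naïve pools of young and middle-aged mice, and 1371 to 1392 and 1459 to 1947 CPM in the injured pools. Neuronal markers summed to 679.9 to 1974 CPM in naïve young tissue, 1165 to 1237 CPM in naïve middle-aged tissue and 274 to 479 CPM and 363 to 445 CPM in the young and middle-aged lesions, so the captured tissue held some neuronal RNA. Middle-aged naïve replicate 2 stood apart from its group, with correlations across genes of 0.937 and 0.945 (Pearson's r of log2 CPM) to the other middle-aged naïve pools, against 0.967 to 0.988 within all other pairs of a group. Genes are not independent replicates.

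Of the 52 members, 10 had no count in any of the 12 pools: Adam24, Adam25, Adam26a, Adam26b, Adam29, Adam30, Adam34, Adam39, Adam6a and Adam6b. All 10 belong to the members known mainly from testis and the reproductive tract. A further 4 members, Adam1b, Adam20, Adam7 and Adamts13, never had more than 3 counts in a pool. Adamts13, the plasma protease that cuts von Willebrand factor, had 1 count in each of 2 pools. The other members below the filter on low counts were Adam2, Adam3, Adam4, Adam5, Adam18, Adam21, Adam28, Adamts3, Adamts18 and Adamts19, with at most 15 counts in a pool. The filter left 28 members for testing, 13 of 33 ADAM and 15 of 19 ADAMTS genes.

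Several members lie beside each other in the genome (coordinates on GRCm38). Adam18, Adam3, Adam5, Adam32 and Adam9 follow each other on chromosome 8 between 24602246 and 25016927, and of these Adam9 alone was above 1 CPM in every pool. Adamts1 (chr16:85793827-85803113) and Adamts5 (chr16:85856173-85901828) both lie on the minus strand of chromosome 16. Adamts15 (chr9:30899155-30922452, minus strand) and Adamts8 (chr9:30942562-30963838, plus strand) lie head to head on chromosome 9. Members of both ADAMTS pairs rose in lesions of both ages, as given below.

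The promoter windows of 3 members are shown because these genes rose in lesions of both ages and differ in role: Adam8 is a leukocyte protease, Adam17 a widespread sheddase and Adamts1 a secreted matrix protease. Each covers 250 bases before to 50 bases after the RefSeq start on GRCm38.p6, read 5′ to 3′ along the gene, with motif matches in capitals. RefSeq gave such a window for 27 of the 52 members, 15 of them tested. Motifs were searched on both strands: PU.1 as GAGGAAGT, SP1 as GGGGCGGGG, and the AP-1 element as TGAGTCA, whose reverse complement is its other common form. The TATA box was searched as its 6 bases TATAAA.
Adam8, chr7:139992513-139992812, minus strand: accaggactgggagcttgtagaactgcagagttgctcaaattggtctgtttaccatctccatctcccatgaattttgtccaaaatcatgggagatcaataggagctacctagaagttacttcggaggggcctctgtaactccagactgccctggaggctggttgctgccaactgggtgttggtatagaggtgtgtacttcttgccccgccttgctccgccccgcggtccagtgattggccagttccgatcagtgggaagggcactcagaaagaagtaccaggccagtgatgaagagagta
Adam17, chr12:21373583-21373882, minus strand: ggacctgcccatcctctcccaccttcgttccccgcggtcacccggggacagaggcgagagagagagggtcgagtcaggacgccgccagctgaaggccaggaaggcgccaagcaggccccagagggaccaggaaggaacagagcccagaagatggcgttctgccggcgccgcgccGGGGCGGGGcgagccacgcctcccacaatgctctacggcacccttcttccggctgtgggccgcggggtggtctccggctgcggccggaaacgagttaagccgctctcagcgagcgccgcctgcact
Adamts1, chr16:85803064-85803363, minus strand: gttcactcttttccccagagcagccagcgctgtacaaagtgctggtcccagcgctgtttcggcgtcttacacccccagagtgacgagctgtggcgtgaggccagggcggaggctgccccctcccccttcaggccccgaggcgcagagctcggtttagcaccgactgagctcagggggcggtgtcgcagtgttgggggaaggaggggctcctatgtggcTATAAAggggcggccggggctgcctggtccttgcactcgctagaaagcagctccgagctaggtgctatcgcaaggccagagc
The Adam8 window held none of the 4 motifs and had a GC content of 52.3%, beside a median of 52.7% over all 32851 windows. In the Adam17 window an SP1 match began at -76, counted from the start at 1 with no base 0, and the GC content was 70%. The Adamts1 window had a TATA match at -32 and a GC content of 64.7%. Matches of PU.1, AP-1, SP1 and TATA were present in 3.2%, 5.2%, 11.4% and 13.6% of all windows. These matches describe the letters of the windows and are not measured sites.

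The first question was how injury changed the family at each age. In young mice 25 of the 28 tested members passed the test, 16 higher and 9 lower in lesions. Among all 15866 genes tested, 54.6% passed, 28.3% higher and 26.3% lower. In middle-aged mice 25 members passed, 15 higher and 10 lower, against 58.5% of all genes, 29.2% higher and 29.3% lower. The median log2 fold change of the tested members was 1.03 in young and 1.09 in middle-aged mice, and that of all tested genes was 0.0006 and -0.03. These shares include members that could enter the test through 1 condition only: 7 members (Adam8, Adam33, Adamts7, Adamts8, Adamts12, Adamts14 and Adamts17) had fewer than 3 naïve pools over the filter's level of 0.85 CPM, and Adam1a and Adam32 had fewer than 3 injured pools over it. Of the 19 members with at least 3 naïve and 3 injured pools over that level, 10 were higher and 7 lower in young lesions, and 10 were higher and 8 lower in middle-aged lesions. Across both ages, 15 members rose at each age, 8 fell at each age and none changed direction. The share of all tested genes called in the same direction at both ages was not counted, so these joint counts only describe the members. Tests were edgeR's quasi-likelihood F test with Benjamini-Hochberg adjustment over all tested genes, n = 3 pools per group, and values after ± with a log2 fold change are standard errors. The 6 oligodendrocyte markers all fell and the 6 myeloid markers all rose at each age, and their part in the changes of the family was not tested. In bulk tissue, fewer cells of a type and less RNA per cell cannot be told apart.

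**Figure D1:**
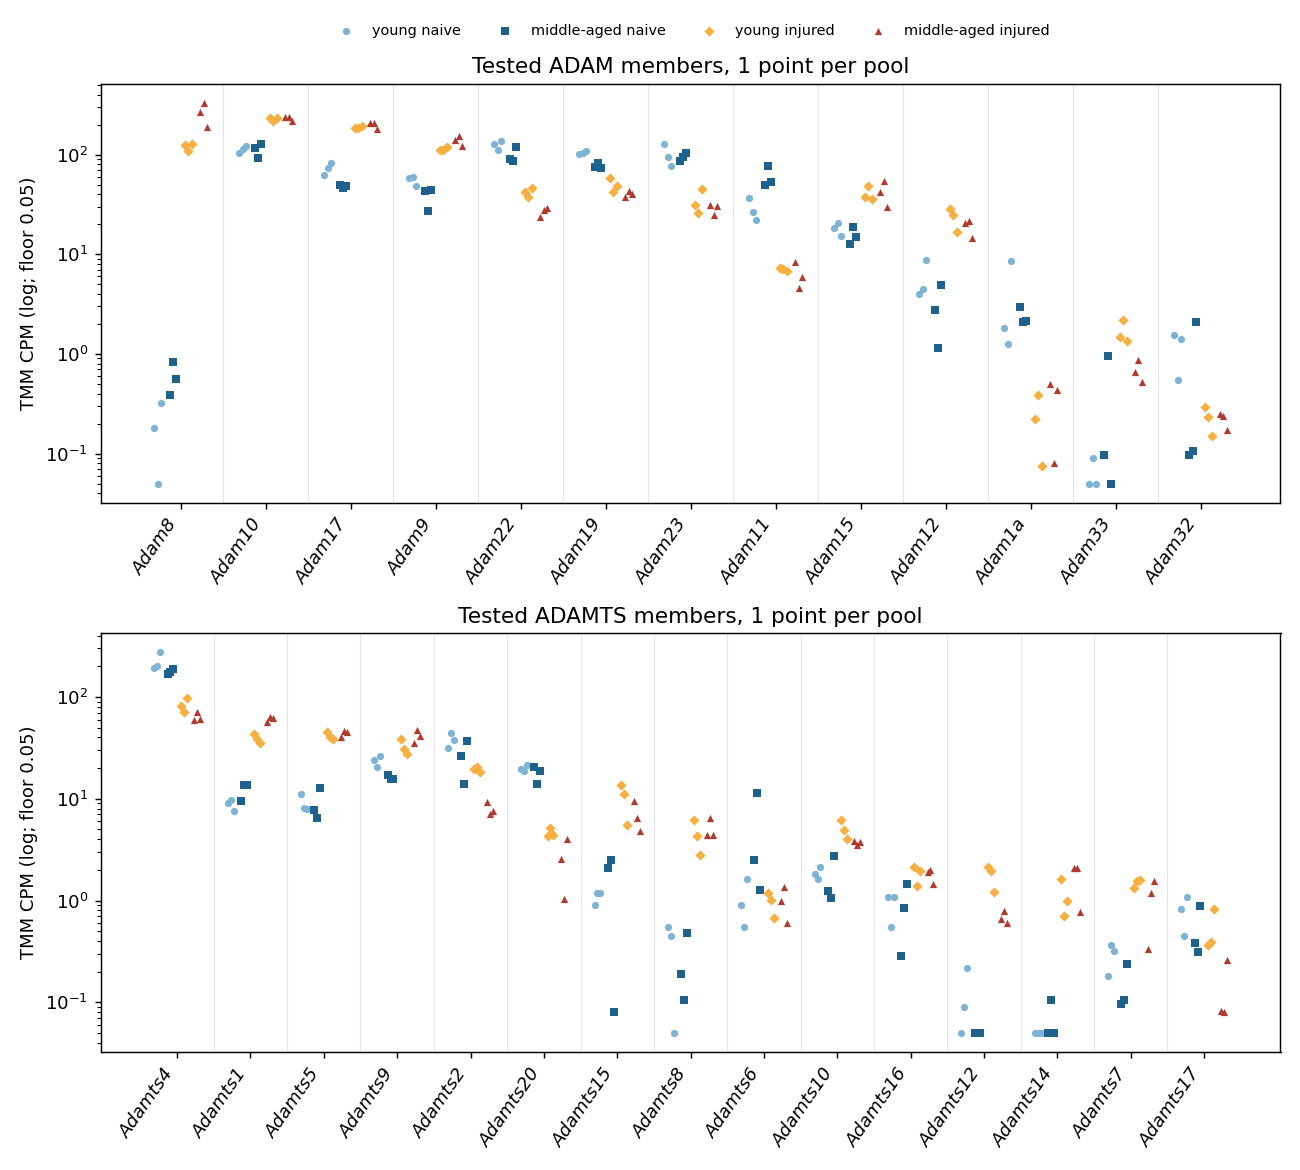
TMM-scaled CPM (log axis) of the 13 tested ADAM (top) and 15 tested ADAMTS members (bottom), 1 point per pool, with the 4 groups set side by side for each gene and values under 0.05 drawn at 0.05. Adam8 lay under 1 CPM in all 6 naïve pools and over 100 CPM in all 6 injured pools, while the points of Adam22, Adam23 and Adamts4 were lower in the injured pools.

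**Figure D2:**
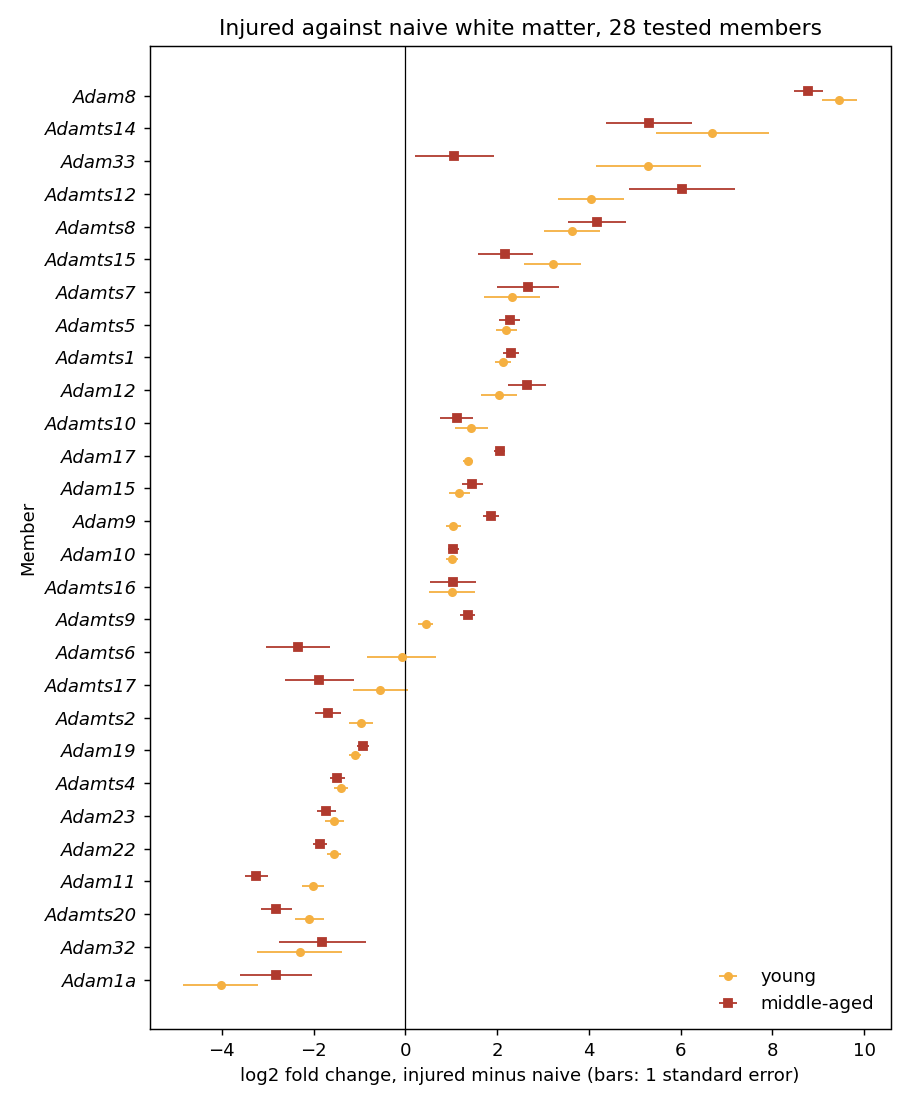
Log2 fold change of injured against naïve white matter (x axis) for the 28 tested members (y axis, ordered by the young value), with circles for young and squares for middle-aged mice and bars of 1 standard error. Adam8 stood at 9.46 and 8.78, and Adam1a was the lowest in young mice at -4.03.

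Adam8, a protease of leukocytes and activated microglia, showed the highest fold change of the family at both ages. Its level was 0.182, 0 and 0.322 CPM in the young naïve pools and 0.384, 0.838 and 0.559 CPM in the middle-aged naïve pools. In lesions it was 124, 109 and 127 CPM in young and 271, 329 and 188 CPM in middle-aged mice. The naïve values rest on 5 and 19 counts in all, and every injured pool lay far above them. On the log2 scale Adam8 changed by 9.46 ± 0.38 (edgeR adjusted p = 1.67e-10) in young and 8.78 ± 0.32 (edgeR adjusted p = 9.21e-11) in middle-aged mice. As a ratio of summed counts per TMM-scaled library size, the change was 754-fold in young mice (95% counting interval 323 to 2324) and 452-fold in middle-aged mice (289.5 to 751.7). All 6 myeloid markers rose at each age as well, and the part of myeloid RNA in the change of Adam8 was not tested. Exons of Gm16201 on the opposite strand overlap 0.99% of the exon bases of Adam8.

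Adam9, Adam10 and Adam17, shedding proteases made by most cell types, rose at both ages. Adam10, the main protease that sheds Notch receptors and cadherins, measured 103, 113 and 121 CPM in young naïve and 117, 92.8 and 127 CPM in middle-aged naïve pools. Injured pools held 235, 216 and 232 CPM of Adam10 in young and 239.6, 238 and 219 CPM in middle-aged mice. Both lesion groups lay above all naïve pools and overlapped each other. For Adam10 the log2 change with injury was 1.02 ± 0.12 (edgeR adjusted p = 7.78e-06) in young and 1.05 ± 0.12 (edgeR adjusted p = 5.07e-06) in middle-aged mice.

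Adam17 encodes the enzyme that releases TNF from the cell surface. Its naïve level was 63.1, 73.7 and 82.5 CPM in young and 49.96, 45.9 and 48.3 CPM in middle-aged pools, with no overlap of the ages. After injury it was 186, 184 and 195 CPM in young and 207, 209.8 and 182 CPM in middle-aged pools. The injured pools of the ages overlapped. Injury changed Adam17 by 1.37 ± 0.12 (edgeR adjusted p = 2.45e-07) in young mice and by 2.05 ± 0.12 (edgeR adjusted p = 5.01e-09) in middle-aged mice on the log2 scale. Exons of Iah1 on the opposite strand cover 4.35% of its exon bases.

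Adam9, a sheddase also known for its adhesive disintegrin domain, was measured at 58.5, 59.2 and 48.3 CPM in young naïve and 42.8, 27.04 and 43.95 CPM in middle-aged naïve pools. Lesions held 113, 111 and 119.5 CPM in young and 139.7, 152 and 123 CPM in middle-aged mice. The middle-aged pools were the lower ones before injury and the higher ones after it. Injury changed Adam9 by 1.05 ± 0.16 (edgeR adjusted p = 9.06e-05) in young and by 1.87 ± 0.17 (edgeR adjusted p = 3.58e-07) in middle-aged mice (log2).

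Adam15 and Adam12 also rose. Adam15, which carries an integrin-binding motif in its disintegrin domain, lay at 18.2, 20.4 and 15.1 CPM in young naïve and 12.6, 18.8 and 14.8 CPM in middle-aged naïve pools, and at 37.2, 48.8 and 35.5 CPM and 42.3, 54.1 and 30.1 CPM in the lesions of young and middle-aged mice. Its log2 fold changes were 1.18 ± 0.22 (edgeR adjusted p = 0.00047) and 1.46 ± 0.23 (edgeR adjusted p = 7e-05). Antisense exons of 4731419I09Rik overlap 20.6% of its exon bases, and the strand setting of the counting is not known. Adam12, a protease of mesenchymal cells, was at 4.003, 4.44 and 8.699 CPM in young naïve and 2.78, 1.15 and 4.87 CPM in middle-aged naïve pools. In lesions Adam12 reached 28.2, 25.01 and 16.5 CPM in young and 20.5, 21.5 and 14.5 CPM in middle-aged mice. The naïve pools scattered widely, but all of them lay below the lesions. On the log2 scale Adam12 changed by 2.04 ± 0.39 (edgeR adjusted p = 0.00047) in young and 2.64 ± 0.41 (edgeR adjusted p = 6.79e-05) in middle-aged mice.

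Adam19 went the other way from the other broadly expressed membrane proteases that passed the test. This sheddase of neuregulins was at 102, 105 and 109 CPM in young naïve and 74.5, 82.9 and 72.8 CPM in middle-aged naïve pools. It fell to 57.6, 42.1 and 48.4 CPM in young and 37.5, 43.5 and 40.2 CPM in middle-aged lesions. Every injured pool was below every naïve pool of its age, with log2 fold changes of -1.10 ± 0.13 (edgeR adjusted p = 5.81e-06) and -0.93 ± 0.13 (edgeR adjusted p = 2.71e-05). Oligodendrocyte markers (6 of 6) and astrocyte markers (4 of 5) also fell at each age. Of 4 neuronal markers, 2 fell in young mice, and 3 fell and 1 rose in middle-aged mice. The part of these cell types in the change of Adam19 was not tested.

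Adam33, a protease of mesenchymal cells, was scarce. Young naïve pools held 0, 0.0905 and 0 CPM and young lesions 1.47, 2.17 and 1.35 CPM. Middle-aged naïve pools held 0.0959, 0.943 and 0 CPM and middle-aged lesions 0.663, 0.877 and 0.517 CPM. The log2 fold change passed the test in young mice, at 5.30 ± 1.14 (edgeR adjusted p = 0.00122), where the naïve value rests on 1 count, and the ratio of counts was 51.9 with a 95% counting interval of 9.0 to 2081. In middle-aged mice it was 1.07 ± 0.86 (edgeR adjusted p = 0.305). Without middle-aged naïve replicate 2, which held 9 of the 10 naïve counts, the middle-aged value was 3.68 (edgeR adjusted p = 0.00504). Adam28, a protease of lymphocytes and epithelia, had at most 6 counts in a pool and was not tested.

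The 3 receptors for secreted LGI proteins all fell. Adam11, Adam22 and Adam23 have no active protease site and bind LGI1 to LGI4 at synapses, axons and in myelinating cells. Adam22 stood at 127, 111 and 136 CPM in young naïve and 89.5, 85.4 and 119 CPM in middle-aged naïve pools. Its lesion level was 42.5, 37.8 and 46.3 CPM in young and 23.9, 27.99 and 29.2 CPM in middle-aged mice. All 3 middle-aged lesions were below the young ones. For Adam22 the log2 change with injury was -1.56 ± 0.15 (edgeR adjusted p = 8.27e-07) in young and -1.86 ± 0.15 (edgeR adjusted p = 1.55e-07) in middle-aged mice.

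Adam23 was at 128, 95.4 and 76.7 CPM in young naïve and 87.2, 95.05 and 104 CPM in middle-aged naïve pools. Lesions of young mice had 31.2, 26.2 and 45.1 CPM and those of middle-aged mice 31.5, 24.7 and 30.5 CPM. The ages overlapped in both conditions, and injury lowered the level by log2 changes of -1.55 ± 0.21 (edgeR adjusted p = 2.22e-05) and -1.72 ± 0.21 (edgeR adjusted p = 7.68e-06). Adam11 was the receptor that passed the test between ages in naïve tissue, where the young pools held 36.5, 26.7 and 22.01 CPM and the middle-aged pools 49.2, 76.3 and 52.7 CPM. After injury the ages overlapped, at 7.26, 7.05 and 6.84 CPM in young and 8.29, 4.55 and 5.95 CPM in middle-aged lesions. Injury changed Adam11 by -2.01 ± 0.25 (edgeR adjusted p = 9.29e-06) in young and by -3.24 ± 0.26 (edgeR adjusted p = 9.85e-08) in middle-aged mice (log2).

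Their ligands moved in the same direction, beside 26.3% of all tested genes that fell in young and 29.3% in middle-aged lesions. Lgi1, Lgi2 and Lgi3 fell in young mice, by log2 changes of -1.96 ± 0.19, -1.69 ± 0.26 and -2.35 ± 0.15, and all 4 ligands fell in middle-aged mice, where Lgi1 stood at -2.87 ± 0.20, Lgi2 at -1.82 ± 0.26, Lgi3 at -2.78 ± 0.15 and Lgi4 at -0.72 ± 0.17. Lgi4, the ligand known from Schwann cells, was at -0.24 ± 0.17 (edgeR adjusted p = 0.259) in young mice. Of 4 neuronal markers, 2 fell in young mice and 3 fell and 1 rose in middle-aged mice, and their part in the change of receptors and ligands was not tested.

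**Figure D3:**
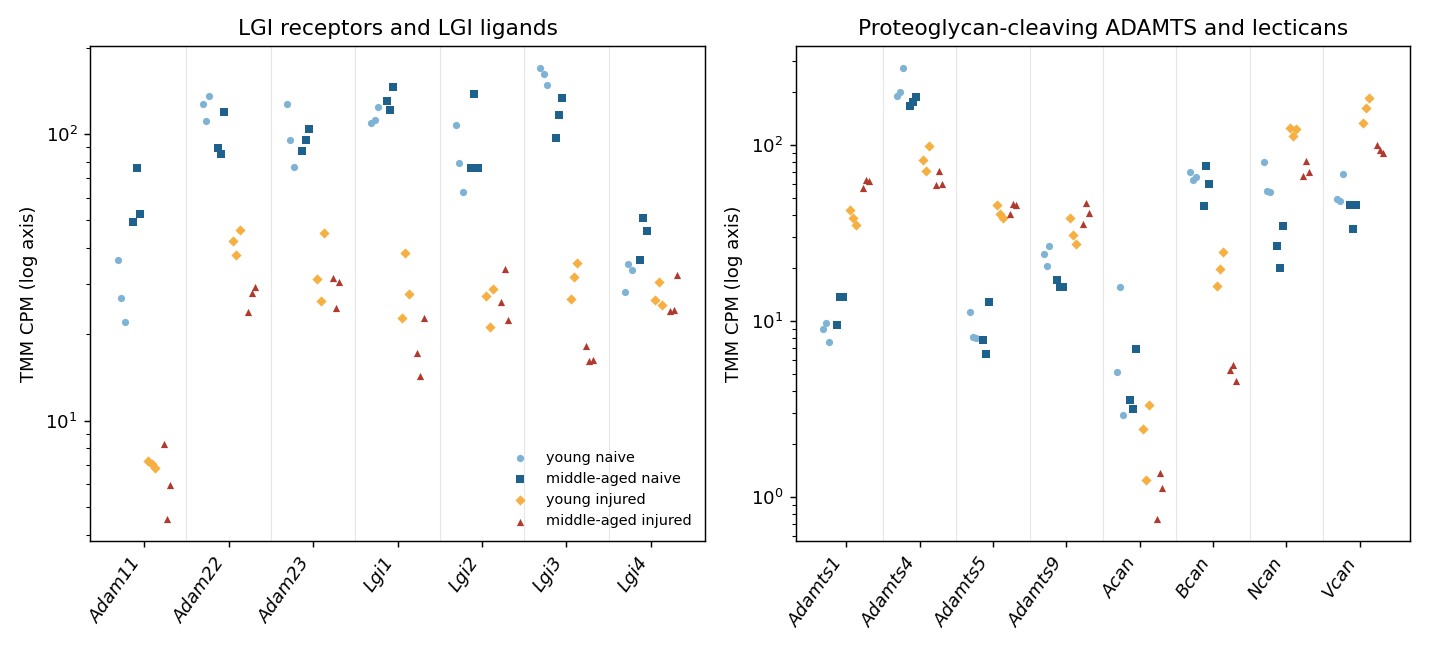
TMM-scaled CPM (log axis) per pool of the LGI receptors and LGI ligands (left) and of 4 proteoglycan-cleaving ADAMTS members and the 4 lecticans (right), with blue marks for naïve and orange and red marks for injured pools. Adam11, Adam22 and Adam23 were lower in all injured pools, Adamts1 and Adamts5 were higher, and Adamts4 was lower.

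The proteoglycan-cleaving class split: 5 of its 7 members rose at both ages and 2 fell at both ages. Adamts4, an aggrecanase that cuts brevican, neurocan, aggrecan and versican, was the ADAMTS with the highest level per length in naïve tissue. Its level was 191, 199.99 and 274 CPM in young naïve and 168, 177 and 189 CPM in middle-aged naïve pools, and 81.9, 71.2 and 98.4 CPM and 59.7, 71.3 and 60.2 CPM in young and middle-aged lesions. It fell by log2 changes of -1.40 ± 0.16 (edgeR adjusted p = 3.35e-06) and -1.48 ± 0.16 (edgeR adjusted p = 1.78e-06), with no overlap of naïve and injured pools. Adamts4 is known as a transcript of mature oligodendrocytes, whose 6 markers fell by a median log2 change of -2.10 in young and -2.39 in middle-aged mice, and the part of those cells in its change was not tested.

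Adamts20, the other member of the class that fell, is known from pigment cell development and versican cleavage. It measured 19.5, 18.8 and 21.4 CPM in young naïve and 20.5, 14.04 and 18.9 CPM in middle-aged naïve pools. Young lesions held 4.33, 5.19 and 4.44 CPM and middle-aged lesions 2.57, 1.04 and 4.05 CPM. All injured pools were below all naïve pools, with log2 fold changes of -2.09 ± 0.31 (edgeR adjusted p = 5.5e-05) in young and -2.81 ± 0.33 (edgeR adjusted p = 5.3e-06) in middle-aged mice.

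Adamts1 and Adamts5, aggrecanases induced by inflammation in many tissues, rose at both ages. Adamts1 went from 9.01, 9.78 and 7.62 CPM in young naïve pools to 42.9, 38.6 and 35.05 CPM in young lesions, and from 9.49, 13.7 and 13.7 CPM to 56.7, 63.3 and 62.3 CPM in middle-aged mice. The middle-aged lesions were all above the young ones. Its log2 fold change was 2.14 ± 0.17 (edgeR adjusted p = 1.45e-07) in young and 2.30 ± 0.17 (edgeR adjusted p = 4.93e-08) in middle-aged mice. Adamts5 was at 11.2, 8.06 and 7.95 CPM in young naïve and 7.77, 6.497 and 12.9 CPM in middle-aged naïve pools. Its lesion values were 45.7, 40.6 and 38.7 CPM in young and 40.6, 46.02 and 45.5 CPM in middle-aged mice. Here the ages overlapped before and after injury. On the log2 scale Adamts5 changed by 2.20 ± 0.23 (edgeR adjusted p = 1.6e-06) in young and 2.27 ± 0.23 (edgeR adjusted p = 9.75e-07) in middle-aged mice.

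Adamts9, a versicanase of the vasculature, rose at both ages. Its naïve pools held 24.02, 20.6 and 26.5 CPM in young and 17.1, 15.6 and 15.6 CPM in middle-aged mice. Lesions held 38.6, 30.7 and 27.3 CPM in young and 35.6, 46.8 and 41.2 CPM in middle-aged mice. In young mice the closest naïve and injured pools lay within 1 CPM of each other. For Adamts9 the log2 change with injury was 0.44 ± 0.17 (edgeR adjusted p = 0.0372) in young and 1.36 ± 0.17 (edgeR adjusted p = 9.95e-06) in middle-aged mice. The young call was lost under upper quartile scaling, without the filter, with the replicate block and without young naïve replicate 1 or 2, young injured replicate 1 or 2 or middle-aged injured replicate 3, where its log2 fold change stayed between 0.30 and 0.48.

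Adamts15 and Adamts8, the head-to-head pair on chromosome 9, were both low in naïve tissue. Adamts15, an aggrecanase, was at 0.91, 1.18 and 1.18 CPM in young naïve and 2.11, 2.52 and 0.0799 CPM in middle-aged naïve pools. It was at 13.8, 11.1 and 5.49 CPM in young and 9.45, 6.46 and 4.83 CPM in middle-aged lesions. All lesions lay above the naïve pools, with log2 fold changes of 3.21 ± 0.63 (edgeR adjusted p = 0.000565) and 2.18 ± 0.60 (edgeR adjusted p = 0.00639). Adamts8, an inhibitor of angiogenesis in culture, was at 0.546, 0.453 and 0 CPM in young naïve and 0.192, 0.105 and 0.479 CPM in middle-aged naïve pools, which is 11 and 9 counts in all. Lesions had 6.16, 4.34 and 2.78 CPM in young and 4.39, 6.54 and 4.397 CPM in middle-aged mice. The ratio of counts was 12.7 in young mice (95% counting interval 6.9 to 25.8) and 18.6 in middle-aged mice (9.56 to 41.2), and the log2 fold changes were 3.64 ± 0.61 (edgeR adjusted p = 0.000166) and 4.18 ± 0.63 (edgeR adjusted p = 5.43e-05). Antisense exons of Gm29724 overlap 10.6% of the exon bases of Adamts8.

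The lecticans, the proteoglycans these enzymes cut, split in the same numbers at both ages: Vcan and Ncan rose and Bcan and Acan fell. Vcan (versican) changed by 1.53 ± 0.17 in young and 1.20 ± 0.17 in middle-aged mice and Ncan (neurocan) by 0.93 ± 0.19 and 1.42 ± 0.19 on the log2 scale. Bcan (brevican) changed by -1.72 ± 0.20 in young and -3.55 ± 0.22 in middle-aged mice, and Acan (aggrecan) by -1.76 ± 0.55 and -2.07 ± 0.60. Bcan was also the lectican whose injury effect differed between ages, by -1.83 ± 0.29 (edgeR adjusted p = 0.0265).

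Among the procollagen N-propeptidases, which trim the amino-terminal propeptide of fibrillar procollagens, Adamts2 fell and Adamts14 rose. Adamts2 lay at 31.6, 44.5 and 37.5 CPM in young naïve and 26.5, 13.9 and 36.7 CPM in middle-aged naïve pools. It was down to 19.8, 20.3 and 18.2 CPM in young and 9.37, 7.02 and 7.59 CPM in middle-aged lesions. The middle-aged lesions were all below the young ones. Injury changed Adamts2 by -0.96 ± 0.27 (edgeR adjusted p = 0.00676) in young and by -1.69 ± 0.28 (edgeR adjusted p = 0.000125) in middle-aged mice (log2).

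Adamts14 had no count in the young naïve pools and 1 count in the middle-aged naïve pools. Young lesions held 1.61, 0.697 and 0.978 CPM and middle-aged lesions 2.07, 2.07 and 0.776 CPM. Against the limit of 3 counts over the young naïve group, the observed level of Adamts14 in young lesions was 11.5-fold higher. This value leaves out the counting error of the injured counts. In middle-aged mice the ratio of counts was 53.8 with a 95% counting interval of 9.3 to 2162. The edgeR adjusted p was 0.000533 in young and 0.000371 in middle-aged mice. Adamts3, the third member of the class, had at most 14 counts in a pool, 71 in all, and was not tested.

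All 5 tested genes of the list of procollagens and other ADAMTS substrates rose at both ages, while Comp was under the filter. Of all tested genes, 28.3% rose in young and 29.2% in middle-aged lesions. The largest young changes were those of Col3a1 (5.49 ± 0.38), Col1a1 (5.06 ± 0.41) and Col1a2 (3.49 ± 0.28), with middle-aged values of 5.65 ± 0.40, 4.46 ± 0.45 and 1.96 ± 0.27. Col1a1 and Col1a2 were lower in middle-aged than in young lesions, with log2 differences of -1.92 ± 0.33 (edgeR adjusted p = 0.0107) and -1.46 ± 0.26 (edgeR adjusted p = 0.0133). The other genes of the list did not pass this test. Among them Col3a1 was lower and Col2a1 higher in every middle-aged lesion than in any young one, while Vwf overlapped. The sum of 5 fibroblast markers, Col1a1 and Col1a2 included, was 638 to 1046 CPM in young lesions, 289.6 to 557 CPM in middle-aged lesions and at most 106 CPM in every naïve pool, and its part in these changes was not tested. Between the lesions of the 2 ages only Col1a1 and Col1a2 of these markers passed the test, and the sum of the remaining 3, Dcn, Lum and Ogn, overlapped, at 184 to 322 CPM in young and 158 to 273 CPM in middle-aged lesions.

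Adamts7 and Adamts12, proteases that cut cartilage oligomeric matrix protein (COMP), both rose from very low levels. Adamts12 was at 0, 0.0905 and 0.215 CPM in young naïve pools and had no count in middle-aged naïve pools. Its lesions held 2.13, 1.94 and 1.203 CPM in young and 0.663, 0.797 and 0.604 CPM in middle-aged mice. The young ratio of counts was 18.4 (95% counting interval 6.0 to 91.2). The observed middle-aged level was 7.48-fold the limit of 3 counts over the naïve group, without the counting error of the injured counts. The edgeR adjusted p was 0.000431 in young and 0.000694 in middle-aged mice. Adamts7 was at 0.182, 0.362 and 0.322 CPM in young naïve and 0.0959, 0.105 and 0.24 CPM in middle-aged naïve pools. Young lesions had 1.32, 1.55 and 1.58 CPM and middle-aged lesions 0.332, 1.196 and 1.55 CPM. The 3 middle-aged lesions spread widely, and the log2 fold change of Adamts7 was 2.32 ± 0.61 (edgeR adjusted p = 0.00472) in young and 2.67 ± 0.68 (edgeR adjusted p = 0.00374) in middle-aged mice.

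Adamts6 and Adamts10, which act on fibrillin microfibrils, differed. Adamts10 was at 1.82, 1.63 and 2.15 CPM in young naïve and 1.25, 1.05 and 2.72 CPM in middle-aged naïve pools. It was at 6.23, 4.96 and 3.99 CPM in young and 3.81, 3.51 and 3.79 CPM in middle-aged lesions. Injured pools lay above naïve pools at each age, with log2 fold changes of 1.44 ± 0.36 (edgeR adjusted p = 0.00354) and 1.12 ± 0.36 (edgeR adjusted p = 0.0162). The middle-aged call was lost without middle-aged naïve replicate 1 (0.94, edgeR adjusted p = 0.0532) and when only the pools compared entered the fit (1.12, edgeR adjusted p = 0.0562).

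The fall of Adamts6 in middle-aged mice rests on 1 pool. Its naïve level was 0.91, 0.543 and 1.61 CPM in young and 2.49, 11.4 and 1.28 CPM in middle-aged mice, and its lesion level was 1.17, 1.01 and 0.677 CPM in young and 0.995, 1.36 and 0.604 CPM in middle-aged mice. The second of the middle-aged naïve values came from the pool that stood apart, and naïve and injured pools overlapped at both ages. On the log2 scale Adamts6 changed by -0.08 ± 0.75 (edgeR adjusted p = 0.937) in young and -2.33 ± 0.70 (edgeR adjusted p = 0.0102) in middle-aged mice, and without that pool the middle-aged value was -0.91 (edgeR adjusted p = 0.155).

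Of the 4 less characterised ADAMTS members, Adamts16 and Adamts17 were tested. Adamts16 did not pass the test, at 1.01 ± 0.50 (edgeR adjusted p = 0.102) in young and 1.03 ± 0.50 (edgeR adjusted p = 0.0919) in middle-aged mice, although all lesions were above the naïve pools of their age, and it reached 2.13 CPM. With only the compared pools in the fit it passed in young mice (1.01, edgeR adjusted p = 0.0451). The middle-aged test was passed without middle-aged naïve replicate 3 (1.67, edgeR adjusted p = 0.0213). Adamts17 stayed at or under 1.07 CPM in every pool, with -0.55 ± 0.60 (edgeR adjusted p = 0.468) in young and -1.88 ± 0.75 (edgeR adjusted p = 0.044) in middle-aged mice, and the middle-aged call was lost under 11 alternatives, DESeq2 and the fit without a filter among them, and not tested under 2. Without middle-aged naïve replicate 3 it was -1.27 (edgeR adjusted p = 0.226), and without middle-aged injured replicate 1 or 2 the edgeR adjusted p was 0.14 and 0.138. The call was also lost without young naïve replicate 1 or 3, or without any 1 young injured pool. Adamts18 had 7 counts and Adamts19 had 12 counts over the 12 pools, 10 of the latter in young lesions.

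Among the 21 members known mainly from testis and the reproductive tract, 2 were tested. Adam1a, an ADAM of sperm, was at 1.82, 1.27 and 8.59 CPM in young naïve and 2.97, 2.096 and 2.16 CPM in middle-aged naïve pools. It was at 0.22, 0.387 and 0.0752 CPM in young and 0.497, 0.0798 and 0.431 CPM in middle-aged lesions. All injured pools were lower than all naïve pools, with log2 fold changes of -4.03 ± 0.81 (edgeR adjusted p = 0.000714) and -2.81 ± 0.79 (edgeR adjusted p = 0.00672). The value is uncertain, because 63.7% of its exon bases overlap the same-strand gene Gm42878, 24.0% overlap Mapkapk5 and 11.3% overlap Tmem116 on the opposite strand. Adam32 was at 1.55, 0.543 and 1.396 CPM in young naïve and 0.0959, 0.105 and 2.08 CPM in middle-aged naïve pools, and at 0.293, 0.232 and 0.15 CPM and 0.249, 0.239 and 0.172 CPM in the lesions. Its log2 fold change was -2.31 ± 0.92 (edgeR adjusted p = 0.0468) in young and -1.81 ± 0.96 (edgeR adjusted p = 0.12) in middle-aged mice. The young call was lost in 11 of 20 alternatives, among them DESeq2, library totals as the only scaling and the replicate block. These included leaving out young naïve replicate 1 or 3, or any 1 injured pool of either age. The middle-aged value passed without middle-aged naïve replicate 1 (-2.30, edgeR adjusted p = 0.0394) or replicate 2 (-2.28, edgeR adjusted p = 0.0373).

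Levels can be compared between members only per length of transcript, here as CPM per kb of exon (mean ± SD, n = 3 pools). In naïve tissue the order was led by Adamts4, at 46.03 ± 9.43 CPM per kb in young and 37 ± 2.17 in middle-aged mice. Adam10 followed at 22.9 ± 1.89 and 22.9 ± 3.59, and Adam19 was the third at 14.8 ± 0.501 and 10.8 ± 0.759. In young naïve tissue, Adam19 and Adam9, the latter at 13.4 ± 1.48, differed by less than the sum of their SDs. In middle-aged naïve tissue the same held of Adam19 against Adam11 at 10.5 ± 2.601 and against Adam9 at 9.21 ± 2.29. In young lesions Adam10 led at 46.3 ± 2.07 CPM per kb, before Adam9 at 27.8 ± 1.11, Adam17 at 26.4 ± 0.831 and Adam8 at 25.9 ± 2.13. Neighbours among Adam9, Adam17 and Adam8 differed by less than the sum of their SDs. In middle-aged lesions Adam8 was highest at 56.7 ± 15.2 CPM per kb, but its spread covered Adam10 at 47.3 ± 2.31, and Adam9 and Adam17 came next at 33.6 ± 3.56 and 27.9 ± 2.14. Adamts4 was the fifth in the lesions of both ages, at 17.4 ± 2.85 and 13.2 ± 1.36 CPM per kb. Summed CPM of the 33 ADAM members was 630.5 ± 17.3 and 551 ± 36.5 in the naïve pools of young and middle-aged mice and 852 ± 33.9 and 999 ± 123 in their lesions. For the 19 ADAMTS members the sums were 328 ± 47.7, 269.7 ± 21.5, 249 ± 17.9 and 243 ± 15.9 CPM in the same order.

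The other genes of the pathway were described from lists by role, and no test was made over a list. Of all tested genes, 28.3% rose and 26.3% fell in young lesions, and 29.2% rose and 29.3% fell in middle-aged lesions. Among 6 inhibitors, Timp1 and Timp2 rose and Timp4 fell at both ages. Timp1, which blocks many matrix metalloproteases and Adam10, changed by 5.83 ± 0.34 in young and 5.88 ± 0.33 in middle-aged mice, and Timp2 by 1.48 ± 0.14 and 1.40 ± 0.14. Timp4 changed by -0.81 ± 0.18 and -1.22 ± 0.18. Timp3, the main inhibitor of ADAM17 and the aggrecanases, was at 0.43 ± 0.19 (edgeR adjusted p = 0.064) in young and 0.12 ± 0.19 (edgeR adjusted p = 0.604) in middle-aged mice. Reck, a membrane-bound inhibitor, was at 0.43 ± 0.36 (edgeR adjusted p = 0.343) and -0.17 ± 0.36 (edgeR adjusted p = 0.705). A2m, a broad protease trap of plasma, was at -0.34 ± 0.17 (edgeR adjusted p = 0.109) in young mice and fell in middle-aged mice, at -1.29 ± 0.17 (edgeR adjusted p = 1.97e-05).

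The iRhom and tetraspanin partners carry Adam17 and Adam10 to the cell surface. Of 8 tested, 3 rose and 5 fell at each age. The iRhoms that escort Adam17 both rose: Rhbdf2 by 4.54 ± 0.33 in young and 3.58 ± 0.30 in middle-aged mice, and Rhbdf1 by 1.42 ± 0.47 and 1.90 ± 0.48. Frmd8, which stabilises iRhoms, fell by log2 changes of -0.70 ± 0.16 and -0.54 ± 0.16. Of the tetraspanins that bind Adam10, Tspan14 rose (0.46 ± 0.14 and 0.78 ± 0.14), and Tspan15 (-1.48 ± 0.14 and -1.40 ± 0.14), Tspan5 (-1.07 ± 0.12 and -0.97 ± 0.12), Tspan17 (-0.86 ± 0.21 and -0.61 ± 0.21) and Tspan33 (-1.33 ± 0.30 and -1.13 ± 0.30) fell. Tspan10 was under the filter. Proprotein convertases remove the prodomain that keeps many members inactive, and here Furin rose by 2.18 ± 0.21 in young and 2.64 ± 0.21 in middle-aged mice and Pcsk7 by 0.95 ± 0.20 and 0.90 ± 0.20. Pcsk6 fell, at -1.40 ± 0.17 and -1.80 ± 0.17, and Pcsk5 passed only the middle-aged test, at 0.72 ± 0.53 in young and 1.95 ± 0.57 (edgeR adjusted p = 0.0087) in middle-aged mice, a difference between ages that did not pass the test (1.24 ± 0.77, edgeR adjusted p = 0.66).

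Of 24 membrane proteins cut by Adam10 or Adam17, 21 were tested, and 12 rose and 5 fell at each age. The shares of all tested genes were 28.3% and 29.2% for rises and 26.3% and 29.3% for falls in young and middle-aged mice. Those that rose included Tnf and Tnfrsf1b, genes of TNF signalling. Tnf had 0 counts in the young naïve pools and 43 in the young lesions. The observed level was 11.3-fold higher against a limit of 3 counts over the group, without the counting error of the injured counts. In middle-aged mice 1 naïve count stood against 57 in lesions, a ratio of 51.1 (95% counting interval 8.82 to 2055). Tnfrsf1b changed by 5.33 ± 0.19 in young and 4.26 ± 0.17 in middle-aged mice (log2). The largest young falls were those of Nrg1 (-1.78 ± 0.35 and -1.83 ± 0.36), Cx3cl1 (-1.17 ± 0.19 and -1.86 ± 0.20) and Prnp (-0.91 ± 0.12 and -1.004 ± 0.12), which are expressed by neurons and other neural cells. Of 6 tested ADAMTS-like genes, whose products resemble ADAMTS proteins without a protease domain, 1 rose and 3 fell in young mice and 4 fell in middle-aged mice. These were Adamtsl3 among the risers (1.47 ± 0.36 in young mice) and Adamtsl1 (-1.32 ± 0.34 and -1.70 ± 0.34), Adamtsl4 (-0.70 ± 0.26 and -1.84 ± 0.27) and Thsd4 (-0.68 ± 0.27 and -0.70 ± 0.27) among those that fell at both ages.

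The second question was whether age changed the family before injury. In naïve white matter 2 of 28 members passed the test, against 3.8% of all tested genes. Adam11 was higher in middle-aged mice by a log2 difference of 1.06 ± 0.23 (edgeR adjusted p = 0.0229), and Adam17 was lower by a log2 difference of -0.60 ± 0.12 (edgeR adjusted p = 0.0116), each with no overlap of the pools. Adam11 lost the call without young naïve replicate 2 (edgeR adjusted p = 0.0975) or replicate 3 (edgeR adjusted p = 0.0771), and both members lost it when only the naïve pools entered the fit (edgeR adjusted p = 0.117 and 0.204). At an unadjusted p under 0.05 were 11 members and 18.3% of all tested genes. Adam9 (-0.54 ± 0.17, edgeR adjusted p = 0.0927), Adamts9 (-0.56 ± 0.17, edgeR adjusted p = 0.094), Adam19 (-0.46 ± 0.13, edgeR adjusted p = 0.0636) and Adamts4 (-0.31 ± 0.15, edgeR adjusted p = 0.294) were lower in all 3 middle-aged naïve pools than in any young one without passing the adjusted threshold. Adam8 (1.81 ± 0.74, edgeR adjusted p = 0.204) was higher in all 3 middle-aged naïve pools than in any young one, also without passing. The share of all tested genes whose naïve pools did not overlap between ages was not counted, so these separations only describe the members. Between these naïve groups 3 of 6 oligodendrocyte markers passed as lower and 4 of 6 myeloid markers as higher with middle age, and their part in these values was not tested.

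The third question was whether age changed the family in the lesion, where 2 of 28 members passed, against 1.15% of all tested genes. Adam8 was higher in middle-aged lesions by a log2 difference of 1.13 ± 0.20 (edgeR adjusted p = 0.0117), and Adamts2 was lower by a log2 difference of -1.28 ± 0.28 (edgeR adjusted p = 0.0407). Adam8 was higher in all 3 middle-aged lesions than in any young one. The call was lost when any 1 of the 3 young lesions, or middle-aged injured replicate 1 or 2, was left out, where the log2 difference was 0.94 to 1.19 and the edgeR adjusted p 0.0511 to 0.0968. The Adamts2 call was lost under 10 alternatives, the replicate block and the removal of any 1 young naïve pool, or of any 1 injured pool of either age, where its adjusted p by edgeR was 0.0508 to 0.215. Adam22 (-0.64 ± 0.15, edgeR adjusted p = 0.0656) and Adamts1 (0.65 ± 0.16, edgeR adjusted p = 0.0791) were close to the threshold with pools that did not overlap, and DESeq2 called both (adjusted p = 0.0116 and 0.00336), against 2.84% of the genes to which it gave an adjusted p. How many of all tested genes had no overlap between the lesions of the ages was not counted. At an unadjusted p under 0.05 were 10 members and 9.63% of all tested genes.

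The level of Adam8 was also set against myeloid markers within each pool. Per 100 CPM of the 6 myeloid markers, Adam8 was at 9.07, 7.85 and 9.14 CPM in young lesions and at 13.9, 16.9 and 12.9 CPM in middle-aged lesions. The groups did not overlap, and a 2-sided exact permutation test of 3 pools against 3 cannot go below p = 0.1. In naïve tissue the same quantity was 0.254, 0 and 0.316 CPM in young and 0.35, 0.589 and 0.38 CPM in middle-aged pools, from few counts. The median log2 difference of the 6 myeloid markers between the lesions of the ages was 0.34. Cd68 alone averaged 742 CPM in young and 1011 CPM in middle-aged lesions, of mean marker sums of 1383 and 1783 CPM. Neutrophils also express Adam8, and their 4 markers summed to 1.05 to 3.08 CPM in young and 1.83 to 2.24 CPM in middle-aged lesions. The part of myeloid cells or neutrophils in the age difference of Adam8 was not tested. A ratio to summed markers cannot tell cell numbers apart from RNA per cell.

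**Figure D4:**
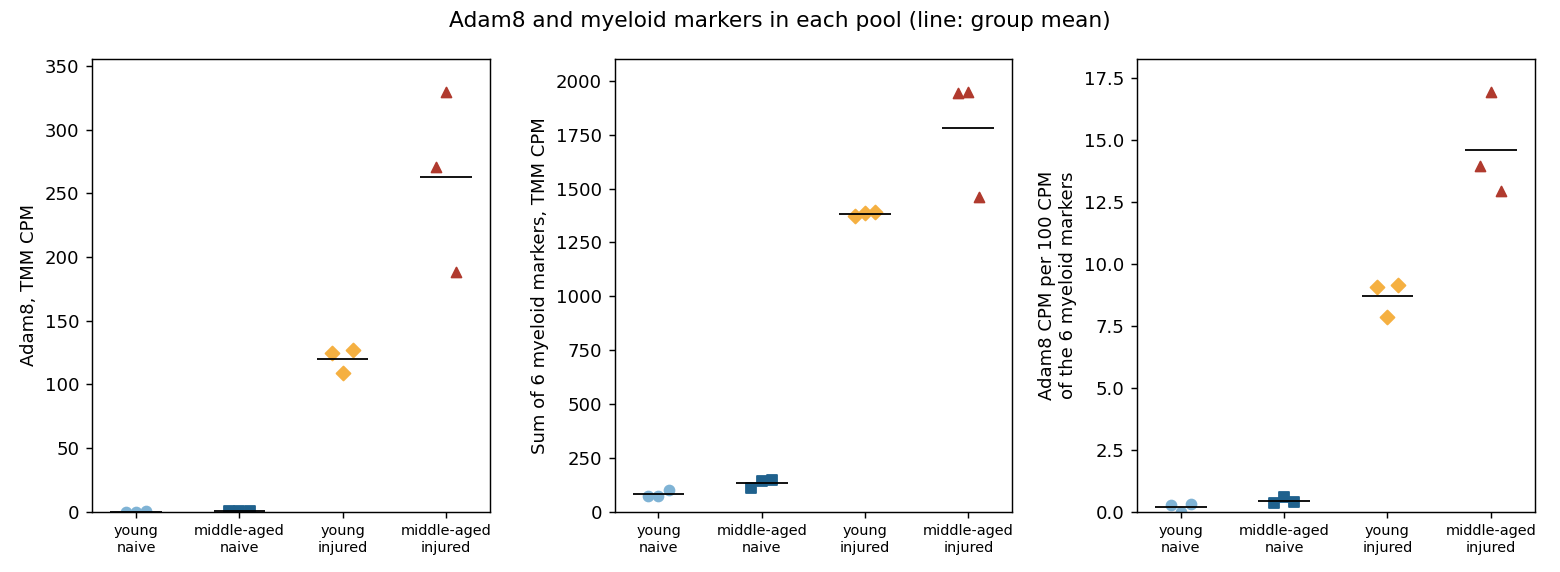
Adam8 (left, TMM-scaled CPM), the sum of 6 myeloid markers (middle, CPM) and Adam8 per 100 CPM of those markers (right) in each pool, by group on the x axis, with lines at the group means. Middle-aged lesions stood above young lesions in all panels, at 188 to 329 CPM of Adam8 against 109 to 127 CPM.

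**Figure D5:**
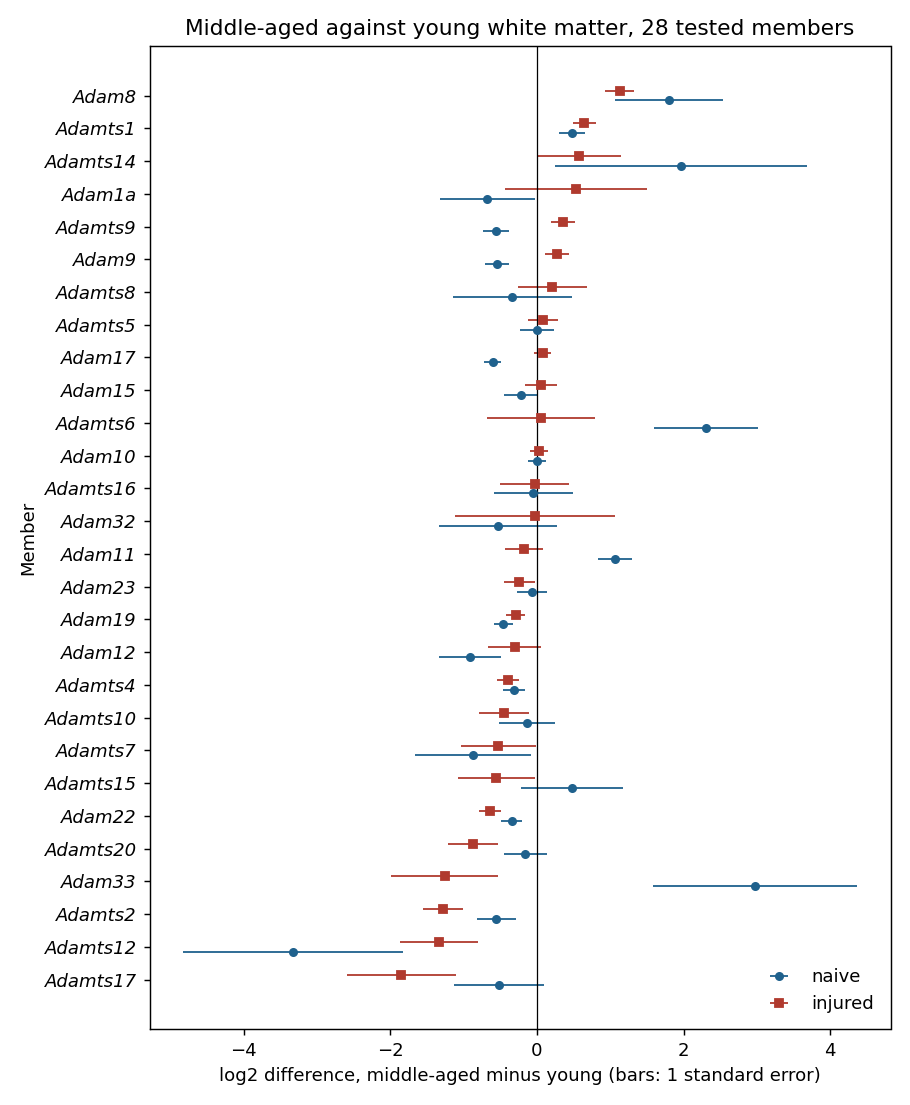
Log2 difference of middle-aged against young white matter (x axis) for the 28 tested members (y axis), with circles for naïve and squares for injured tissue and bars of 1 standard error. Adam8 and Adamts2 passed the test in lesions, and Adam11 and Adam17 passed it in naïve tissue.

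The last question was whether the response to injury itself differed between ages. None of the 28 members passed the test of the difference of injury effects by edgeR, against 0.139% of all tested genes. At an unadjusted p under 0.05 were 6 members, against 9.93% of all tested genes: Adam17 (0.68 ± 0.16, edgeR adjusted p = 0.133), Adamts9 (0.91 ± 0.24, edgeR adjusted p = 0.156), Adam9 (0.82 ± 0.23, edgeR adjusted p = 0.2), Adam11 (-1.23 ± 0.35, edgeR adjusted p = 0.197), Adam33 (-4.23 ± 1.56, edgeR adjusted p = 0.358) and Adamts6 (-2.25 ± 1.02, edgeR adjusted p = 0.484). The values of Adam17, Adam9 and Adamts9 were positive, the direction of a larger rise in middle-aged mice, without passing by edgeR. Each of these genes was lower in every middle-aged naïve pool than in any young one. Those naïve values enter the difference itself and are no separate observation. DESeq2 called 4 of the 6, Adam11, Adam17, Adam9 and Adamts9 (adjusted p = 0.0489, 0.0119, 0.0492 and 0.0303), against 1.72% of the genes to which it gave an adjusted p. Without a filter, edgeR called Adam11 and Adam9 (adjusted p = 0.0261 and 0.0432), against 1.21% of all genes.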

How the data were processed

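RNA from laser-captured spinal cord white matter of 12 pools of 5 C57Bl6 mice was sequenced after amplification at library building. The authors checked reads with FastQC 0.11.4, mapped them to GRCm38 with TopHat2 2.0.10 and Bowtie 1.1.2, and deposited raw counts per gene from featureCounts, without normalization. Annotation release, strand setting and handling of shared reads are not given in the sources used here, and members that overlap other genes were therefore taken as uncertain.

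Tests on the deposited counts used edgeR 4.0.16 under R 4.3.3: filterByExpr by group, TMM scaling, the quasi-likelihood F test and a model of 4 group means without covariate. Benjamini-Hochberg adjustment ran across all 15866 genes that passed the filter, and 0.05 was the cutoff. Standard errors were obtained by dividing the log2 change by the root of its F value. Levels are CPM with TMM-scaled library sizes, from totals of 9834447 to 12807437 counts per pool, and CPM per kb uses the union of exons in GENCODE M21 (GRCm38). Ratios of counts use the same scaled sizes, and their intervals are exact and, like the limit of 3 counts, cover counting error only. Folds against that limit take the injured counts as observed, without their counting error. Groups came from the sample labels, and nothing in the labels says how pools of 1 group were separated beyond their number. The test was tried on simulated counts with 200 genes altered in the young injured group only. Genes of low level were not among those altered, and the ratios of counts and their intervals were not part of that check.

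Values in each pool are given for members that passed any of the 5 contrasts and reached a group mean of 1 CPM, and for Adam10, Adam17, Adam11, Adam22 and Adam23 whatever their test. Other genes come from lists by role, with values for inhibitors and partners and at most 3 genes per direction elsewhere. A listed gene and an overlap that this rule would name are not reported here. The members and lists were chosen with earlier results of these data known. Alternatives were 4 other scalings, DESeq2 1.42.0, 2 other filters, the replicate number as a block, only the pools compared, and leaving out each pool.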

Additional observations from a re-analysis of the deposited data

How the results depend on the processing

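For the members with values in each pool, 53 pairs of member and comparison past the threshold were recomputed under the alternatives. Of 1108 values, 1067 kept direction and call, 41 lost the call and 0 changed direction. Many of these values left out a pool outside the comparison, which can move the fold change only slightly. Alternatives in which a member fell under the filter gave no value. Adamts17, whose middle-aged injury call was lost under 11 alternatives, is outside this set. The count of members changed by injury was 23 to 25 in young and 24 to 26 in middle-aged mice when 1 pool was left out. For age in naïve tissue the count of 2 became 6 with DESeq2, 4 without a filter and 0 with only the pools compared, and was 1 to 4 with 1 pool left out. For age in lesions the count of 2 became 4 with DESeq2 and 4 with only the pools compared, and was 0 to 4 with 1 pool left out. For the difference of injury effects the count of 0 became 4 with DESeq2 and 2 without a filter, and was 0 whichever pool was left out. Under DESeq2 and without a filter, the share of all genes called was counted for lesions and for the difference of injury effects only. For naïve tissue, and for the other alternatives, that share was not counted, so these counts only describe the members. With only the pools compared, some members fell under the filter in the injury comparisons. In naïve tissue Adam11 and Adam17 were still tested in that fit and lost the call. The cause of the shifts in these age counts was not tested. Library totals as the only scaling moved the median log2 fold change of all genes by 0.196 in young and 0.109 in middle-aged injury, and no member past the threshold turned direction. With the replicate block, 23 and 25 members were called for injury in young and middle-aged mice, 2 and 2 for age in naïve tissue and lesions, and 0 for the difference of injury effects. In lesions the block gained Adam22 (adjusted p = 0.0304) and lost Adamts2 (adjusted p = 0.0546), both by edgeR. The numbers do not pair the pools: deviations of same-numbered pools of 2 groups correlated at -0.113 to 0.153 across genes, with 2 of 18 pairs over 0.1, against -0.174 to 0.172 in 36 pairs with other numbers. Depth limits the 24 members that were not tested, none of which had more than 15 counts in a pool.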
